A study of Homo sapiens with 11 samples.

Results

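EGF withdrawal was examined in hTert-HME1 cells that carried an siRNA against BRCA2, by comparing 3 libraries grown without EGF with 3 libraries grown with EGF. hTert-HME1 is a human line of mammary epithelium that telomerase made immortal, and both groups were transfected with the siRNA labelled BRCA2-1 and sampled at passage 6. The growth medium was a mammary epithelial medium that was complete or lacked epidermal growth factor (EGF), and the replicates of each group are labelled biological replicates A, B and C. The 6 libraries are part of a series of 11. The other 5 carried the siRNA labelled control-2, of which 3 were grown with EGF (A, B and C) and 2 without (A and C). BRCA2-1 is a single siRNA, the line is a single immortalised line, and the time without EGF is not given in the sources used here, so effects of the siRNA on other transcripts cannot be told apart from effects on BRCA2. Total RNA was depleted of ribosomal RNA and sequenced, and the deposited values are normalised expression on a log2 scale. Genes at or above 3.32 (10 on the linear scale) in at least 2 of the 11 libraries were compared, which left 17950 of 40460 genes. The genes just inside that limit, HSPE1P27 and SPINT1-AS1, lay between 2.48 and 3.32 in the 6 libraries. The genes just outside it, ANAPC10P1 and PLA2G12AP1, lay between 2.68 and 3.33. Throughout, 3 values for a group are log2 values of replicates A, B and C in that order, a difference is without EGF minus with EGF, and errors after ± are moderated standard errors.

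EGF is a secreted ligand of the EGF receptor, a receptor tyrosine kinase of the ErbB family. Bound receptors signal through the RAS-ERK and PI3K-AKT pathways, which drive immediate-early and ETS transcription factors, feedback inhibitors of ERK signalling and entry into the cell cycle, and which keep FOXO transcription factors out of the nucleus. Cultured mammary epithelial cells depend on EGF or on ligands they make themselves for proliferation, and epidermal and mammary cells deprived of such signals can take on features of differentiation. BRCA2 is a protein of homologous recombination, which repairs broken DNA in dividing cells.

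BRCA2 mRNA did not separate the siRNA labels, so the libraries are called by their labels. It was 12.43, 12.37 and 12.40 with EGF and 12.48, 12.27 and 12.11 without EGF in the libraries labelled BRCA2 siRNA, a difference of -0.12 ± 0.12 (adjusted p = 0.468). Control libraries with EGF had 12.45, 12.13 and 12.48, which overlap the libraries labelled BRCA2 siRNA, and control libraries without EGF had 11.44 (A) and 11.65 (C). Without EGF, BRCA2 mRNA was thus higher under BRCA2 siRNA than under control siRNA, by 0.74 ± 0.13 (adjusted p = 0.00397, a comparison in which 20.5% of all genes passed), which goes against the label. The cell type label was borne out by basal epithelial genes: KRT5 was 17.27 to 17.65 and KRT14 16.38 to 16.65 with EGF. Of the luminal markers, EPCAM was 0.15 to 0.67 and KRT19 1.25 to 1.71 in the 6 libraries, below the limit for testing, while the luminal keratins KRT7, KRT18 and KRT8 were 15.92 to 16.11, 11.86 to 11.92 and 10.92 to 10.95 with EGF.

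No counts are in the deposited table, so depth is unknown. In every gene the deposited values had equal means over the 4 libraries of replicate A and the 7 of replicates B and C, to within 7.2e-09. Each group of BRCA2 siRNA holds A, B and C, so this centring cancels in the estimate of their difference. It does not cancel where control libraries without EGF enter, as these lack replicate B. The fit used here has 7 residual degrees of freedom and no term for replicate A, so its p-values do not count the centring. With that term 3937 genes passed for withdrawal, against 4873 without it. Replicate B with EGF stood farthest from its group: the SD over genes of its difference from replicate C was 0.433, against 0.246 to 0.303 for pairs of libraries without EGF. The same pair, B and C, differed by an SD of 0.483 in the control libraries with EGF.

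EGF withdrawal changed the expression of 4873 genes (27.1% of those tested; adjusted p below 0.05, limma with Benjamini-Hochberg adjustment) in the libraries labelled BRCA2 siRNA. Of these, 2399 genes rose (13.4%) and 2474 fell (13.8%), and 467 changed at least 2-fold (2.6%), 326 up (1.82%) and 141 down (0.786%). Rises were larger than falls, with a median difference of 0.65 among genes that rose and -0.45 among those that fell, while the median over all genes tested was 0.0034. The 6 libraries did not overlap between media for 8367 genes (46.6%), among them 4829 of the 4873 called. Taken by letter, 4862 of the called genes had differences of the same sign in A, B and C. Calls were made on these same values, so both counts among called genes follow largely from the selection and are not separate support. Under a stricter limit (at least 100 on the linear scale in at least 3 libraries), which removes weakly expressed genes, 1489 rose and 2439 fell, so that 37.9% of called genes rose against 49.2% here. The number of calls depended on single libraries: 2227 genes passed without replicate A with EGF, 2861 without replicate B without EGF, 2644 without replicate C without EGF, and 47 with replicates B and C alone. In all 11 fits that each leave out 1 library, 2036 of the 4873 genes passed, and 399 of the 467 with at least a 2-fold change. Replicate C without EGF was the library farthest from the group with EGF for 54.8% of genes that rose and 62.6% of genes that fell.

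**Figure D1:**
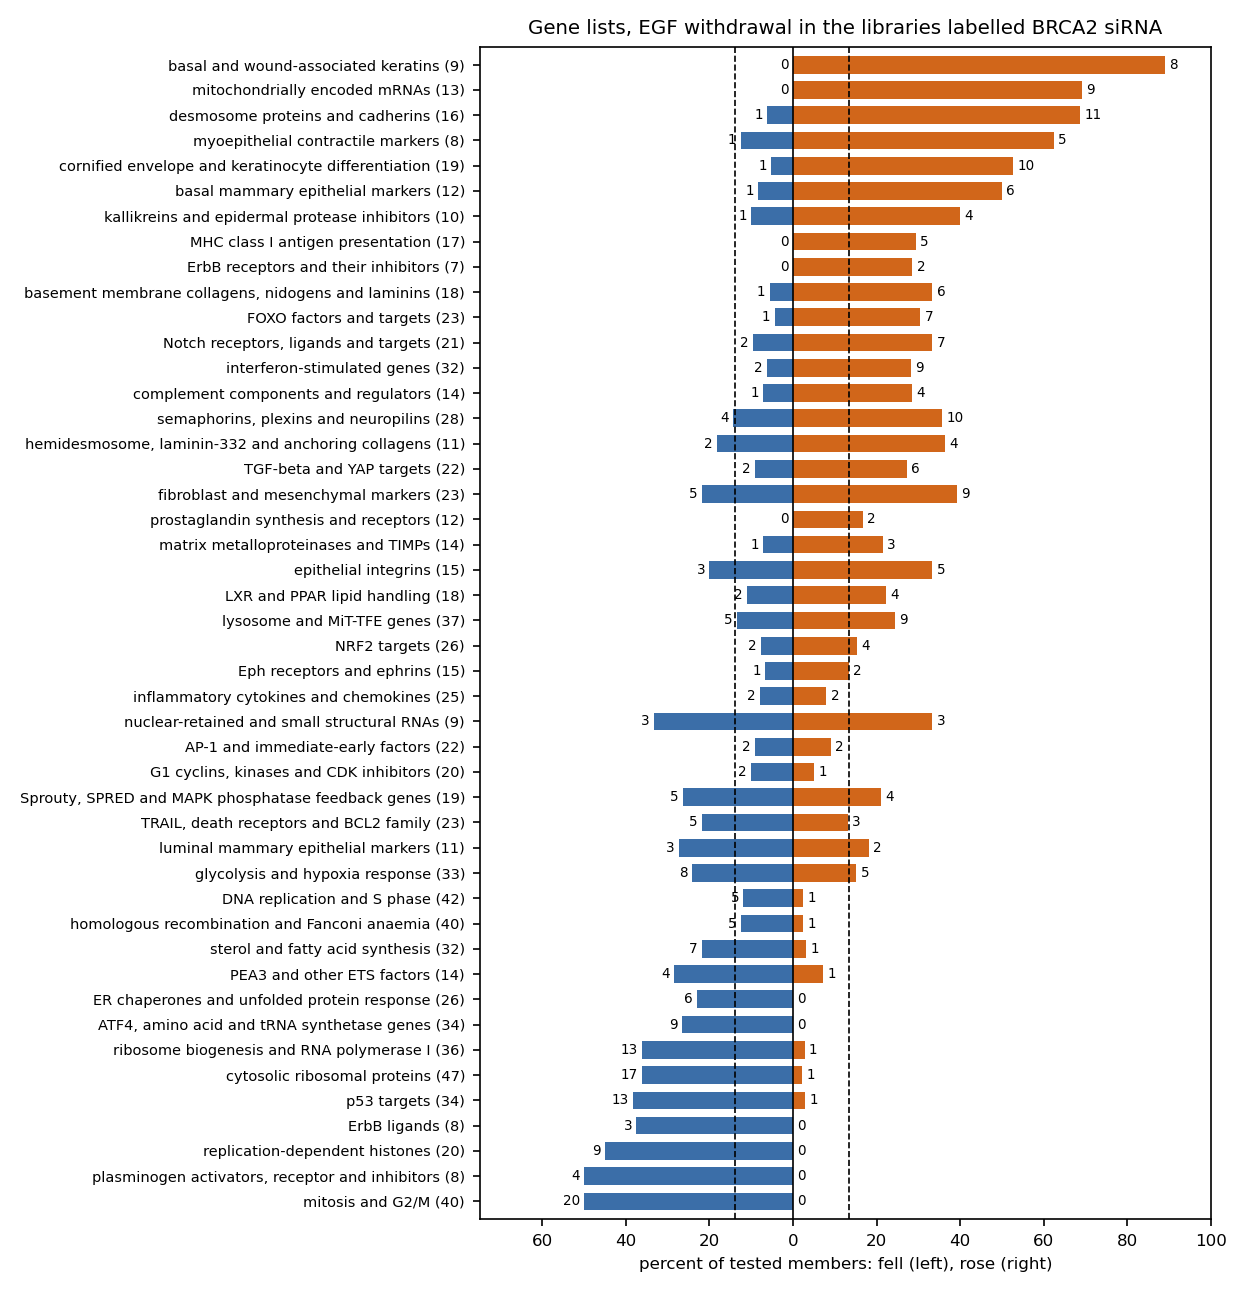
Percent of tested members of each gene list that rose (right, orange) or fell (left, blue) after EGF withdrawal in the libraries labelled BRCA2 siRNA, with the number of genes beside each bar and the number tested in brackets, for lists with at least 7 genes tested. Dashed lines mark the shares over all genes tested, 13.4% higher and 13.8% lower; keratins, desmosome genes and mitochondrially encoded mRNAs lie far to the right and mitosis, plasminogen activator and histone genes to the left.

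Gene groups were described through 47 lists with 1112 genes, of which 950 were tested. They are set against the shares above, 13.4% of all genes higher and 13.8% lower, and the lists were written with earlier results of these data known. The plot of gene lists shows that basal keratins, cell junction and cornified envelope genes rose in larger shares than genes at large, and mitosis, histone, p53 target and ribosome biogenesis genes fell in larger shares.

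The 15 genes below had the largest rises among called genes with a symbol whose mean without EGF lay above that of the median gene. The rule also required that the 6 libraries not overlap between media. Larger rises at lower levels, such as those of KLK5 and SERPINB13, are given with their lists. FABP4, a fatty acid carrier, was 8.27, 7.92 and 8.48 with EGF and 10.53, 10.87 and 11.67 without EGF, a rise of 2.80 ± 0.26 or 6.98-fold (adjusted p = 0.000196). APOE, an apolipoprotein that carries cholesterol, was 6.40, 6.96 and 6.61 against 8.78, 9.28 and 10.17, a rise of 2.75 ± 0.28. All 3 libraries without EGF lay more than 1.8 above the highest with EGF for both genes, and replicate C was the highest of them. The complement proteases C1R and C1S rose by 2.36 ± 0.26 and 1.93 ± 0.23, and C3, the central complement protein, rose from 11.16, 11.46 and 11.51 to 12.97, 13.28 and 13.80. TENM2, a teneurin of the cell surface, was 10.55, 10.84 and 10.57 with EGF and 12.67, 12.78 and 13.10 without, a rise of 2.20 ± 0.12 with the smallest adjusted p among these 15 genes (1.82e-05). DLL1, a Notch ligand, rose by 2.23 ± 0.19, the protocadherin FAT2 by 2.16 ± 0.23, the BMP1-like metalloprotease TLL1 by 2.32 ± 0.24 and the fibrillar collagen COL1A1 by 1.90 ± 0.22. TRIM29, a protein of basal epithelia, was 6.81, 7.21 and 7.38 against 8.88, 9.28 and 10.17. HR, a corepressor named for the hairless phenotype, rose by 2.11 ± 0.18, GAS1, a membrane protein first found in growth-arrested cells, by 2.07 ± 0.30, the calcium-binding protein S100A9 by 2.04 ± 0.29 and MEGF6, a protein with EGF-like repeats, by 2.04 ± 0.26. For each of these 15 genes replicate C had the highest value without EGF, and all 15 passed in each of the 11 fits that leave out 1 library.

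The largest falls were ranked in the same way, among genes whose mean with EGF lay above that of the median gene. DMBT1, a secreted scavenger receptor protein, was 9.53, 10.68 and 9.05 with EGF and 7.04, 7.40 and 6.18 without EGF, a difference of -2.88 ± 0.48 (adjusted p = 0.00254). MMP1, the interstitial collagenase, was 10.92, 10.79 and 10.12 against 7.87, 7.87 and 7.55, a fall to 0.139 times its level with EGF (-2.85 ± 0.26, adjusted p = 0.000173). IL13RA2, a decoy receptor for interleukin 13, fell by 2.53 ± 0.38 on the log2 scale. SEMA3A, a secreted axon guidance protein, was 10.67, 10.82 and 10.40 with EGF and 8.38, 8.35 and 8.36 without, a difference of -2.27 ± 0.14. RGS2, which switches off G protein signals, was 12.49, 12.51 and 12.22 against 10.72, 10.62 and 10.55, a difference of -1.78 ± 0.12. For SEMA3A and RGS2 the libraries without EGF lay within 0.17 of each other, while those with EGF spanned 10.40 to 10.82 and 12.22 to 12.51. The naming rule required groups without overlap, so their separation is not a result. GPAT3, an enzyme of glycerolipid synthesis, differed by -1.98 ± 0.22, the proteoglycan core protein SRGN by -1.69 ± 0.14, the trypsin PRSS3 by -1.68 ± 0.17, the transmembrane collagen COL13A1 by -1.66 ± 0.18 and VEPH1 by -1.70 ± 0.19. MYOSLID, a long noncoding RNA, INSC, an adaptor of spindle orientation, and OSBP2, an oxysterol-binding protein, differed by -1.62, -1.59 and -1.56. BIRC3, an inhibitor of apoptosis, and GDF15, a stress cytokine, rested on more variable libraries. BIRC3 was 13.41, 14.57 and 12.72 with EGF and 11.78, 11.94 and 11.89 without, and its adjusted p of 0.0223 became 0.0584 to 0.0657 when any of 5 of the 6 libraries was left out (all but replicate C with EGF). GDF15 was 9.73, 10.62 and 8.63 against 8.14, 7.97 and 7.72, and its call (adjusted p = 0.0434) was lost without any of those 5 libraries and without either control library without EGF or control replicate A with EGF, with a largest adjusted p of 0.131. The other 13 genes passed in all 11 of those fits.

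**Figure D2:**
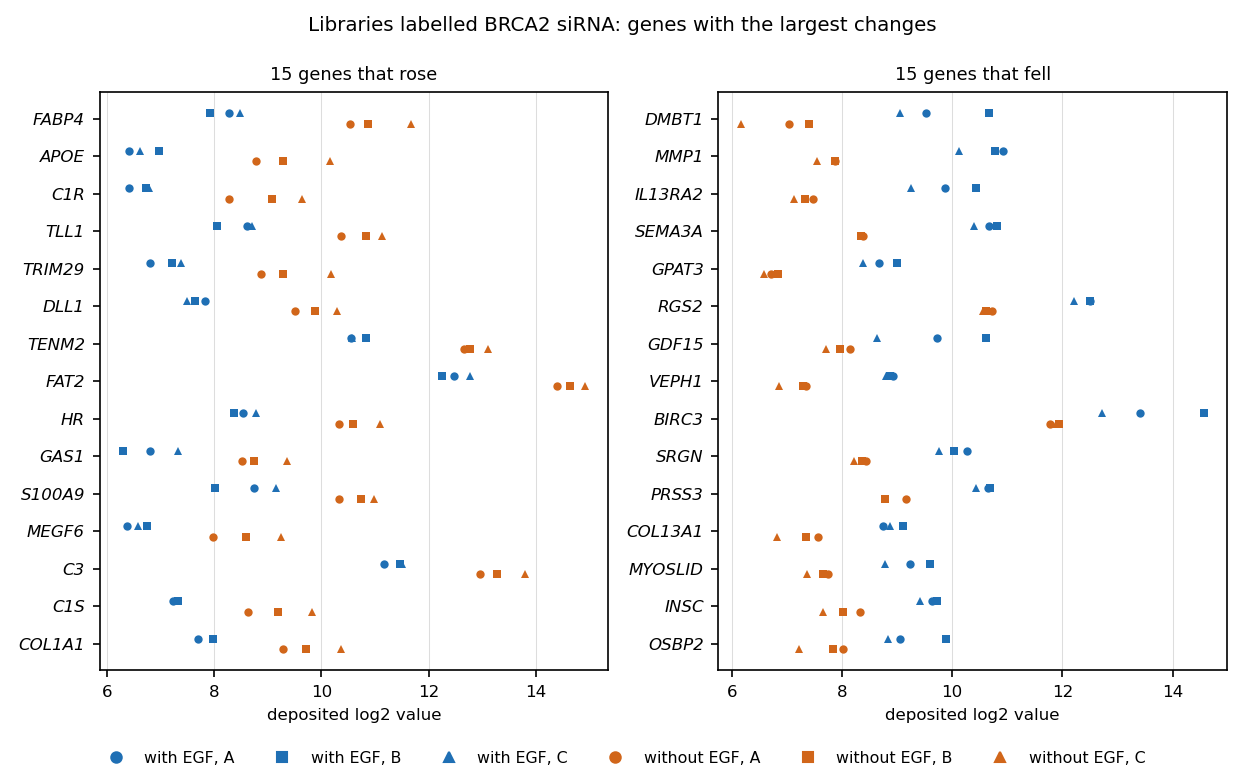
Deposited log2 value (horizontal axis) in each of the 6 libraries labelled BRCA2 siRNA for the 15 genes with the largest rise (left) and the 15 with the largest fall (right) that met the naming rule; blue, with EGF; orange, without EGF; the marker shape gives the replicate. The naming rule required that the colours not overlap, so their separation is not a result. The triangle of replicate C is the highest orange point for all 15 genes on the left.

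Of 8 ligands of ErbB receptors tested, 3 fell and none rose (37.5% lower, against 13.8% of all genes), and 2 of the 5 that did not pass had positive differences. The list holds ligands of the EGF receptor and neuregulins, which bind the related receptors ERBB3 and ERBB4. AREG (amphiregulin) was 14.67, 14.79 and 13.94 with EGF and 13.56, 13.58 and 13.28 without EGF, a difference of -0.99 ± 0.23 (adjusted p = 0.0114). TGFA (transforming growth factor alpha) was 11.88, 12.27 and 11.58 against 11.33, 11.25 and 11.20, and EPGN (epigen) was 9.63, 10.58 and 9.54 against 9.25, 8.91 and 8.98. These were the 3 that fell. HBEGF was 10.12, 11.45 and 8.78 with EGF and 8.78, 9.17 and 9.42 without, and EREG 13.10, 14.08 and 12.32 against 12.27, 12.38 and 12.47, so neither passed. Replicate B with EGF had the highest value of all 6 libraries for AREG, TGFA, EPGN, HBEGF, EREG and NRG1. The list's median difference was -0.72 (-0.40 without replicate B with EGF), and over the ligands replicate B exceeded replicate C by a median of 0.94 with EGF, against -0.02 without. Without replicate B with EGF 1 ligand passed, and none passed without replicate A with EGF or without replicate C without EGF. Of the ligands, EGF, BTC and NRG3 lay below the limit.

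Of the receptors and their inhibitors, 2 of 7 rose (28.6%, against 13.4% of all genes) and none fell. ERBB2, the coreceptor that binds no ligand, was 10.26, 10.14 and 10.30 with EGF and 10.59, 10.71 and 10.74 without, a rise of 0.45 ± 0.09. LRIG1, a membrane protein that promotes receptor degradation, was 9.27, 9.64 and 9.33 against 9.84, 9.88 and 9.83. EGFR itself was 15.09, 15.90 and 14.98 with EGF and 15.54, 15.36 and 15.44 without, and the groups overlapped. ERRFI1, an intracellular inhibitor of the receptor, was 13.94, 14.74 and 13.14 against 12.62, 12.96 and 12.91, a difference of -1.11 ± 0.45 that did not pass (adjusted p = 0.0871).

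The list of feedback inhibitors of ERK signalling did not move as a block: 5 of 19 fell (26.3%) and 4 rose (21.1%). Of all genes 13.8% fell and 13.4% rose. The list counts RGS2, which acts on G protein signals and was already named among the largest falls. Besides RGS2, the falls were SPRY2, a Sprouty protein, from 10.34, 10.99 and 10.05 to 9.24, 9.35 and 9.28 (-1.17 ± 0.25), the ERK phosphatase DUSP6 from 13.44, 13.34 and 12.92 to 12.60, 12.71 and 12.87, the nuclear ERK phosphatase DUSP5 by -0.90 ± 0.29 and SPRED1, an inhibitor of RAS activation, by -0.55 ± 0.08. SPRY4 was 10.54, 10.68 and 10.21 with EGF and 10.28, 10.14 and 10.08 without, and its difference of -0.31 ± 0.14 did not pass. The rises were small: DUSP7 by 0.25 ± 0.08, SPRED2 by 0.30 ± 0.10, SPRY3 by 0.51 ± 0.15 and IL17RD by 0.54 ± 0.15. None of those 4 rises passed without replicate A with EGF or without replicate C without EGF. The falls of DUSP5 and DUSP6 passed in 1 and 2 of the 6 fits that leave out a library labelled BRCA2 siRNA, with largest adjusted p values of 0.122 and 0.0953 over all 11 fits, whereas RGS2, SPRY2 and SPRED1 passed in all 11.

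The PEA3 subfamily of ETS transcription factors, which are induced by ERK signalling, fell. ETV1 was 9.23, 8.83 and 9.13 with EGF and 8.05, 8.01 and 7.90 without EGF, a difference of -1.08 ± 0.13 (adjusted p = 0.00068). ETV4 was 9.06, 9.40 and 9.01 against 8.62, 8.13 and 8.12, and ETV5 11.18, 11.46 and 10.95 against 10.71, 10.37 and 9.93, each a difference of -0.86. Each library without EGF lay below each library with EGF for all 3 genes. Of all genes tested 46.6% had no overlap between media, in either direction. Among the other ETS factors ELK3 fell by 0.32 ± 0.09 and EHF, an epithelial ETS factor, rose from 4.80, 5.40 and 4.53 to 6.03, 6.74 and 7.53. In all 4 of 14 ETS factors fell (28.6%, against 13.8% of all genes) and 1 rose (7.1%, against 13.4%).

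Immediate-early transcription factors changed in 4 of 22 cases, a share of 18.2% against 27.1% of all genes. FOS was 9.89, 9.59 and 9.95 with EGF and 10.28, 10.72 and 11.45 without, a rise of 1.01 ± 0.25, and FOSB 7.13, 7.49 and 6.97 against 7.51, 7.98 and 8.52, a rise of 0.80 ± 0.23. Both subunits of AP-1 were higher in all 3 libraries without the growth factor than in any with it. No overlap between media was also found for 46.6% of all genes. IER5 fell by 0.41 ± 0.10 and IER3 from 13.29, 13.44 and 12.52 to 12.03, 12.29 and 12.37. EGR1 was 10.54, 9.75 and 9.17 with EGF and 9.18, 9.83 and 10.37 without, and MYC 13.99, 14.17 and 13.87 against 13.95, 13.96 and 14.03, so for both the groups overlapped. The fall of IER3 passed in 1 of the 6 fits that leave out a library labelled BRCA2 siRNA (largest adjusted p over all 11 fits, 0.152), and that of IER5 was lost without replicate A with EGF or replicate B without EGF. FOS passed in all 11 fits that leave out 1 library. The call of FOSB was lost without replicate A or C with EGF and without replicate B or C without EGF, with a largest adjusted p of 0.0989.

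**Figure D3:**
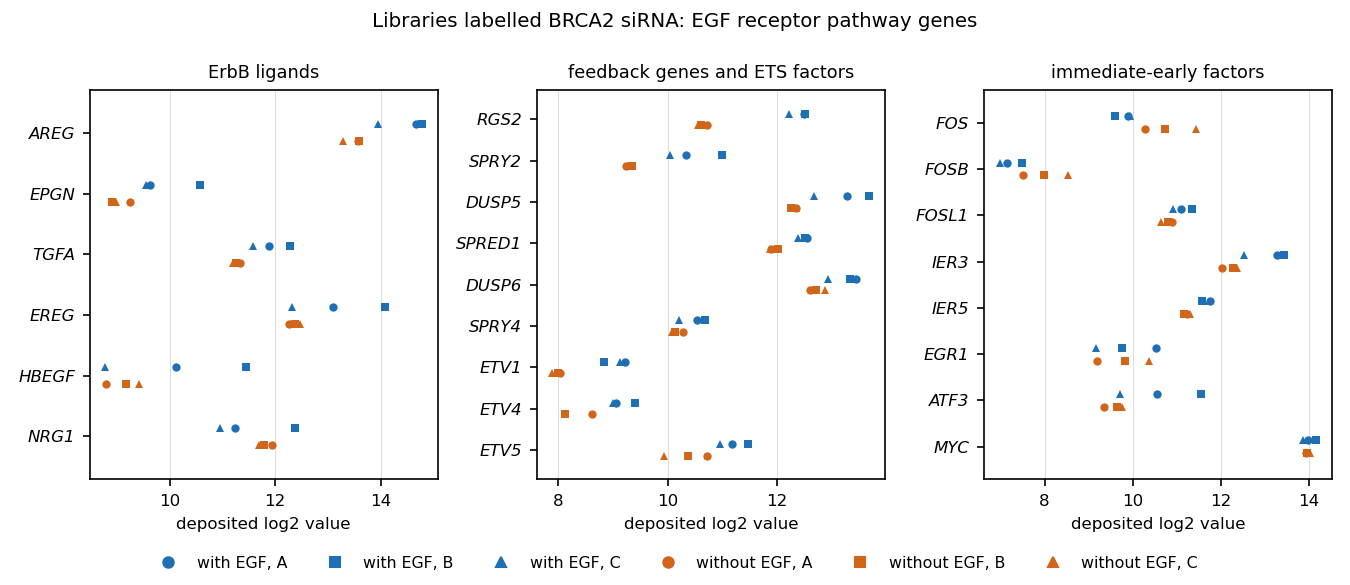
Deposited log2 value in the 6 libraries labelled BRCA2 siRNA for ligands of ErbB receptors (left), feedback inhibitors and ETS factors (middle) and immediate-early factors (right); blue, with EGF; orange, without EGF; the marker shape gives the replicate. The blue square of replicate B lies to the right for all 6 ligands. RGS2, SPRY2 and the 3 PEA3 factors have no overlap between colours, which held for 46.6% of all genes tested. For RGS2 the naming rule of the largest falls required it.

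FOXO transcription factors and some of their targets rose. FOXO1 was 7.77, 7.74 and 8.07 with EGF and 8.83, 8.95 and 9.30 without EGF, a rise of 1.17 ± 0.19 (adjusted p = 0.00234), FOXO3 rose by 0.43 ± 0.08 and FOXO4 by 0.45 ± 0.14. The ubiquitin ligase gene FBXO32, a FOXO target, was 7.27, 7.87 and 7.39 against 8.76, 9.28 and 9.97. SESN3, a sestrin, rose by 1.13 ± 0.18, the insulin receptor INSR by 0.78 ± 0.18 and the pro-apoptotic BCL2L11 (BIM) by 0.99 ± 0.26. In the list 7 of 23 rose (30.4%, against 13.4% of all genes), 1 fell and 15 did not pass, among them the cell cycle inhibitor CDKN1B at 10.98, 11.45 and 10.86 against 11.08, 11.09 and 11.18. The mitophagy receptor BNIP3, which is also induced by hypoxia, was the member that fell (-0.54 ± 0.10). Without replicate C without EGF 4 members rose. FOXO4 and BCL2L11 passed in 1 and 2 of the 6 fits that leave out a library labelled BRCA2 siRNA. Their largest adjusted p values in limma over all 11 fits were 0.1395 and 0.0629, whereas FOXO1 and FOXO3 passed in all 6.

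Of 18 genes of cholesterol and fatty acid handling 4 rose (22.2%, against 13.4% of all genes) and 2 fell (11.1%, against 13.8%). Besides APOE and FABP4, the cholesterol exporter ABCA1 rose from 7.52, 8.07 and 7.58 to 8.52, 8.58 and 9.20 and FABP5 by 0.50 ± 0.12. PPARG, a nuclear receptor for fatty acids, was 9.07, 8.91 and 8.89 with EGF and 8.29, 8.06 and 7.81 without, a difference of -0.90 ± 0.12, and the oxysterol receptor LXR alpha (NR1H3) differed by -0.45 ± 0.14. The list's median was -0.07 (0.03 under quantile normalization).

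Of 40 mitosis genes 20 fell and none rose (50%, against 13.8% of all genes fell), 37 of the 40 differences were negative and the median was -0.39. AURKA, a kinase of the spindle poles, was 12.92, 12.77 and 12.73 with EGF and 12.28, 12.12 and 11.94 without EGF, a difference of -0.69 ± 0.10 (adjusted p = 0.0014). HMMR, a spindle protein, was 12.92, 12.90 and 12.73 against 12.26, 12.22 and 12.02, and the centrosomal kinase NEK2 11.63, 11.54 and 11.23 against 10.87, 10.82 and 10.71. CCNB2, a mitotic cyclin, was 12.38, 12.25 and 12.23 against 11.99, 11.83 and 11.73. For these 4 genes each library without EGF lay below each with EGF, by at least 0.23. They were named for small p values in their list, and 46.6% of all genes had no overlap, so this separation is not a separate result. ECT2, which drives cytokinesis, differed by -0.51 ± 0.10, the chromosomal passenger BIRC5 (survivin) by -0.49 ± 0.10, the kinesin KIF2C by -0.46 ± 0.09 and the checkpoint protein BUB3 by -0.45 ± 0.09. The number that fell was 11 without replicate A with EGF or without replicate C without EGF, 26 without replicate B with EGF, 15 under quantile normalization (median -0.23) and 0 with replicates B and C alone.

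Promoters of mitosis genes are known for a cell cycle homology region, spelled TTTGAA, and for CCAAT boxes. Both were searched on both strands, which adds the reverse complements TTCAAA for the first and ATTGG for the second, in windows of 300 bases, 250 before and 50 after each annotated start, from RefSeq for GRCh38.p14. Windows were found for 33 of the 40 mitosis genes, 43 in all. TTTGAA was in 60.5% of these windows, against 11.1% of 16545 windows of genes tested, and CCAAT in 74.4% against 34.6%. Among the mitosis genes the share with TTTGAA was 59.1% in windows of genes that fell and 61.9% in those of genes that did not pass. The 200 bases before the start of 3 genes that fell, each 5′ to 3′ on the gene's own strand with these letters in capitals, show how the motifs lie: CCNB2 and HMMR hold both, with TTTGAA starting 29 bases before the start in CCNB2 and 28 and 22 in HMMR, while NEK2 holds CCAAT boxes, at 66 and 34 bases, and no TTTGAA in this stretch. A match is a description of the letters and not of a bound factor.
CCNB2, chr15:59104946-59105145, plus strand: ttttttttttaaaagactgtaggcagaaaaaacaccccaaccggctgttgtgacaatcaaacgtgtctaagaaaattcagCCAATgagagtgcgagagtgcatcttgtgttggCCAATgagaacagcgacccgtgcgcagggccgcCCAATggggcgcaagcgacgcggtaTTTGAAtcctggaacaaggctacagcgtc
HMMR, chr5:163460432-163460631, plus strand: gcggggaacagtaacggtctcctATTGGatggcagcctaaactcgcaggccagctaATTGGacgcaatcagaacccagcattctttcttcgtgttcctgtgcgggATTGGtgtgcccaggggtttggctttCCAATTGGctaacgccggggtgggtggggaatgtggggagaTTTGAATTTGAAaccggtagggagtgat
NEK2, chr1:211675622-211675821, minus strand: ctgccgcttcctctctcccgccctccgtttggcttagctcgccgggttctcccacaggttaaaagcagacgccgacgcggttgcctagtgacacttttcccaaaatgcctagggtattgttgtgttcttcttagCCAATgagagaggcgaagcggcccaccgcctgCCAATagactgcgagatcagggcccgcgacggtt

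Genes of G1, DNA replication and recombination were counted separately. Of 20 G1 regulators 2 fell (10%) and 1 rose (5%), below the 13.8% and 13.4% of all genes. CCND1 (cyclin D1) was 12.89, 12.36 and 12.98 with EGF and 12.21, 12.13 and 11.92 without. The CDK inhibitor CDKN1A (p21) was 11.99, 12.14 and 11.70 against 11.08, 10.998 and 10.996, and E2F3 rose by 0.29 ± 0.08. CCND1 and E2F3 passed in 1 and 2 of the 6 fits that leave out a library labelled BRCA2 siRNA. Their largest adjusted p values in limma were 0.113 and 0.0748, whereas CDKN1A passed in all 6. CCNE2 (cyclin E2) was 9.004, 7.22 and 9.30 with EGF and 9.10, 9.23 and 8.999 without, and E2F1 8.47, 7.50 and 8.54 against 8.53, 8.21 and 8.22, so replicate B with EGF was the lowest library for both. Of 42 DNA replication genes 5 fell (11.9%, near the 13.8% of all genes) and 1 rose, with CDC45, a subunit of the replicative helicase, at -0.57 ± 0.14, the clamp loader subunit RFC4 at -0.49 ± 0.12 and POLE, a DNA polymerase, at 0.62 ± 0.20. Among 40 homologous recombination and Fanconi anaemia genes 5 fell (12.5%, near the 13.8% of all genes) and 1 rose (2.5%). RAD54B differed by -0.53 ± 0.15 and FANCC by 0.51 ± 0.12. The medians of the replication and recombination lists were -0.01 and -0.10 (0.09 and 0.0025 under quantile normalization). The replication list differed between replicates, with a median of -0.17 in A, 0.46 in B and -0.36 in C, and without replicate B with EGF its median was -0.24. The median of replicate B minus replicate C over this list was -0.66 with EGF and 0.14 without. The call of POLE was lost without any 1 of 5 of the 6 libraries (all but replicate C with EGF), and the calls of CDC45, RFC4 and RAD54B without replicate A with EGF. Without replicate A with EGF no replication gene and 1 recombination gene fell.

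Replication-dependent histones fell in 9 of 20 cases (45%, against 13.8% of all genes) and none rose. H4C3 was 12.68, 12.61 and 12.42 with EGF and 11.86, 11.81 and 11.54 without EGF, a difference of -0.83 ± 0.13, and H4C11, H2BC4 and H2BC13 differed by -0.79, -0.77 and -0.75. These are members of a multigene family whose reads can be split between near-identical copies, so values of single histone genes are uncertain. Their mRNAs lack poly(A) tails, and they were measured here in total RNA. All 20 differences were negative, with a median of -0.49 (-0.33 under quantile normalization). Without replicate B with EGF 14 fell.

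Targets of p53 fell in 13 of 34 cases (38.2%, against 13.8% of all genes) and 1 rose. RRM2B, a ribonucleotide reductase subunit, was 12.06, 12.10 and 11.82 with EGF and 11.05, 11.08 and 10.88 without EGF, a difference of -0.99 ± 0.10 (adjusted p = 0.000343). MDM2, the ubiquitin ligase that degrades p53, was 13.69, 13.50 and 13.57 against 13.02, 12.97 and 12.91, a difference of -0.62 ± 0.07. The death receptor EDA2R differed by -0.82 ± 0.16, CCNG1 (cyclin G1) by -0.61 ± 0.12, TIGAR, a regulator of glycolysis, by -0.57 ± 0.11, SPATA18 by -0.39 ± 0.08, TRIAP1 by -0.38 ± 0.07 and the pro-apoptotic BAX by -0.39 ± 0.11. With CDKN1A and GDF15 these make 10 of the 13 falls. The list's median was -0.38, and 10 to 19 members fell in the 11 fits that leave out 1 library.

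Of 23 genes of the apoptosis machinery 3 rose (13.04%, near the 13.4% of all genes) and 5 fell (21.7%, against 13.8%). The death ligand TNFSF10 (TRAIL) was 5.76, 5.64 and 5.92 with EGF and 6.81, 7.88 and 8.74 without, a rise of 2.04 ± 0.36 whose size differed between replicates, and the BH3-only BMF rose by 0.75 ± 0.21, as did BCL2L11. The survival protein BCL2L1 was 12.55, 12.81 and 12.41 against 11.95, 11.77 and 11.62, a difference of -0.81 ± 0.15, and MCL1, another survival protein, differed by -0.36 ± 0.12. The TRAIL receptor TNFRSF10A and the adaptor FADD differed by -0.41 and -0.43. Without replicate A with EGF or without replicate B or C without EGF 1 member rose and 1 fell.

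Genes for making ribosomes were counted in 2 lists, set against the 13.8% of all genes that fell. Of 36 ribosome biogenesis genes 13 fell (36.1%) and 1 rose, with the nucleolar GTPase GNL3 from 13.82, 13.88 and 13.63 to 13.23, 13.25 and 13.14, NOP10 at -0.55 ± 0.09, the helicase DDX21 at -0.46 ± 0.11 and NPM1 (nucleophosmin) at -0.42 ± 0.09. The count was 5 without replicate A with EGF, 4 without replicate C without EGF and 8 under quantile normalization. Among 47 cytosolic ribosomal proteins 17 fell (36.2%) and 1 rose: RPS7 was 15.08, 15.02 and 15.01 with EGF and 14.67, 14.64 and 14.74 without, a difference of -0.35 ± 0.08, and the list's median was -0.25. That count was 1 without replicate A with EGF or without replicate B without EGF, 3 without replicate A without EGF, 7 without either control library without EGF, 29 without control replicate C with EGF and 2 under quantile normalization, where the median was -0.07. Many of these genes have near-identical pseudogenes that can share reads, so single values are uncertain.

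Mitochondrially encoded mRNAs rose in 9 of 13 cases (69.2%, against 13.4% of all genes) and none fell. MT-ND1 was 11.47, 11.91 and 12.06 with EGF and 12.91, 12.58 and 12.63 without EGF, a rise of 0.89 ± 0.15, and MT-ND5 12.84, 13.24 and 13.30 against 13.97, 13.84 and 13.95, a rise of 0.79 ± 0.11. Replicate A was the lowest library with EGF and the highest without for MT-ND1, MT-ND2, MT-ND4, MT-ND5, MT-ATP6 and MT-ATP8, and the list's median difference was 1.21 in A, 0.52 in B and 0.49 in C. Of 9 nuclear-retained and small structural RNAs 3 rose and 3 fell (33.3% each). NEAT1, the scaffold of paraspeckles, was 11.72, 11.89 and 12.24 against 12.90, 13.10 and 13.28, and MALAT1 and KCNQ1OT1, which also stay in the nucleus, rose by 0.64 ± 0.14 and 1.19 ± 0.25, while the small nucleolar RNA hosts SNHG1 and SNHG5 fell by 0.76 ± 0.15 and 0.69 ± 0.15. The part that RNA recovery from organelles or nuclei has in the other results was not tested.

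Genes of amino acid supply, protein folding and sterol synthesis were lower in part. ATF4, the transcription factor of the amino acid response, was 15.04, 15.08 and 14.84 with EGF and 14.58, 14.52 and 14.37 without EGF, a difference of -0.50 ± 0.13. CHAC1, a glutathione-degrading ATF4 target, was 10.57, 10.98 and 9.56 against 9.45, 9.18 and 8.31, the serine enzyme PSPH differed by -0.73 ± 0.19, and the aminoacyl-tRNA synthetases EPRS1, IARS1, LARS1, NARS1 and SARS1 by -0.45 to -0.61. In this list 9 of 34 fell (26.5%, against 13.8% of all genes) and none rose, with a median of -0.54. It rested on single libraries: 1 fell without replicate A or B with EGF or without replicate B without EGF, 0 fell without replicate C without EGF, 4 fell without either control library without EGF, and 17, 14 and 18 fell without replicate C with EGF, control replicate B with EGF and control replicate C with EGF. The ER chaperones HSP90B1, PDIA4 and PDIA6 and the secreted factor MANF differed by -0.36, -0.35, -0.34 and -0.59. Of 26 folding genes 6 fell (23.1%), and no member of that list fell without replicate A with EGF. Of 32 sterol and fatty acid genes 7 fell (21.9%) and 1 rose (3.1%). ACAT2, which condenses acetyl-CoA, fell from 13.61, 12.98 and 13.48 to 12.68, 12.51 and 12.46, and the sterol reductase TM7SF2 from 8.19, 7.91 and 8.26 to 7.15, 7.56 and 6.94. SREBF2, the transcription factor of sterol synthesis, rose by 0.25 ± 0.06. The sterol list's median of -0.20 was -0.48 in A, 0.14 in B and -0.51 in C, and became -0.49 without replicate B with EGF and -0.07 without replicate C with EGF or under quantile normalization. The number that fell was 3 without replicate A with EGF, 4 without replicate B or C without EGF and 10 without replicate B with EGF.

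Carbohydrate, redox and lysosome genes went both ways. Of 33 glycolysis and hypoxia genes 8 fell (24.2%, against 13.8% of all genes) and 5 rose (15.2%, near 13.4%). The glucose transporter SLC2A3 was 10.36, 9.92 and 10.01 with EGF and 9.22, 9.36 and 9.46 without. Hexokinase HK1 differed by -0.39 ± 0.08 and triosephosphate isomerase TPI1 by -0.42 ± 0.09, while the glucose transporter SLC2A1 rose by 0.56 ± 0.13, the demethylase KDM3A by 0.54 ± 0.10 and the carbonic anhydrase CA12 by 0.96 ± 0.23. Of 26 NRF2 targets 4 rose and 2 fell, a share of 23.1% against 27.1% of all genes, with the haem oxygenase HMOX1 from 8.95, 8.19 and 9.13 to 9.78, 10.08 and 10.16 and malic enzyme ME1 at -0.65 ± 0.14. Lysosome genes rose in 9 of 37 cases (24.3%, against 13.4% of all genes) and fell in 5 (13.5%, near 13.8%). GPNMB, a glycoprotein of lysosomes and melanosomes, was 5.83, 6.36 and 6.31 with EGF and 7.62, 8.32 and 9.20 without, the glucosidase GAA rose by 0.91 ± 0.11, the peptidase TPP1 by 0.80 ± 0.13 and cathepsin D (CTSD) by 0.61 ± 0.10.

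Keratins of the basal and wound-associated epidermis rose together. Of 9 members 8 rose (88.9%, against 13.4% of all genes), none fell and the median was 0.84. KRT5, the basal keratin, was 17.48, 17.27 and 17.65 with EGF and 18.14, 18.18 and 18.40 without EGF, a rise of 0.77 ± 0.13, and its partner KRT14 was 16.44, 16.38 and 16.65 against 17.28, 17.26 and 17.46 (0.84 ± 0.10). KRT17 was 13.37, 13.85 and 13.27 against 14.33, 14.44 and 14.79, and KRT75 7.02, 6.99 and 7.09 against 7.90, 8.40 and 8.25. The wound keratins KRT6A, KRT6B, KRT6C and KRT16 rose by 0.51, 1.06, 0.55 and 0.97. KRT6A, KRT6B and KRT6C are near-identical copies and reads may be split between them. At least 7 keratins rose in each of the 11 fits that leave out 1 library, and none with replicates B and C alone.

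Proteins of desmosomes and cadherins rose in 11 of 16 cases (68.75%, against 13.4% of all genes) and 1 fell. Desmoplakin (DSP), which ties desmosomes to keratin, was 14.87, 15.18 and 15.04 with EGF and 15.77, 15.87 and 16.15 without EGF, a rise of 0.90 ± 0.11, and plakoglobin (JUP) 11.16, 11.45 and 11.35 against 11.99, 12.10 and 12.34. E-cadherin (CDH1), the adhesion molecule of epithelia, was 6.94, 7.38 and 7.54 against 8.65, 9.09 and 9.62, a rise of 1.83 ± 0.23. The desmosomal cadherin DSC3 rose by 0.69 ± 0.18, plakophilin PKP1 by 0.32 ± 0.08, P-cadherin (CDH3) by 0.51 ± 0.16 and the protocadherin FAT1 by 0.56 ± 0.10. N-cadherin (CDH2), the mesenchymal form, was 10.56, 10.61 and 10.40 with EGF and 10.34, 10.20 and 10.13 without, a difference of -0.30 ± 0.08. Without replicate A with EGF or replicate C without EGF 6 members rose. The calls of CDH2 and CDH3 each passed in 2 of the 6 fits that leave out a library labelled BRCA2 siRNA. Their largest adjusted p values in limma over all 11 fits were 0.0868 and 0.158.

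**Figure D4:**
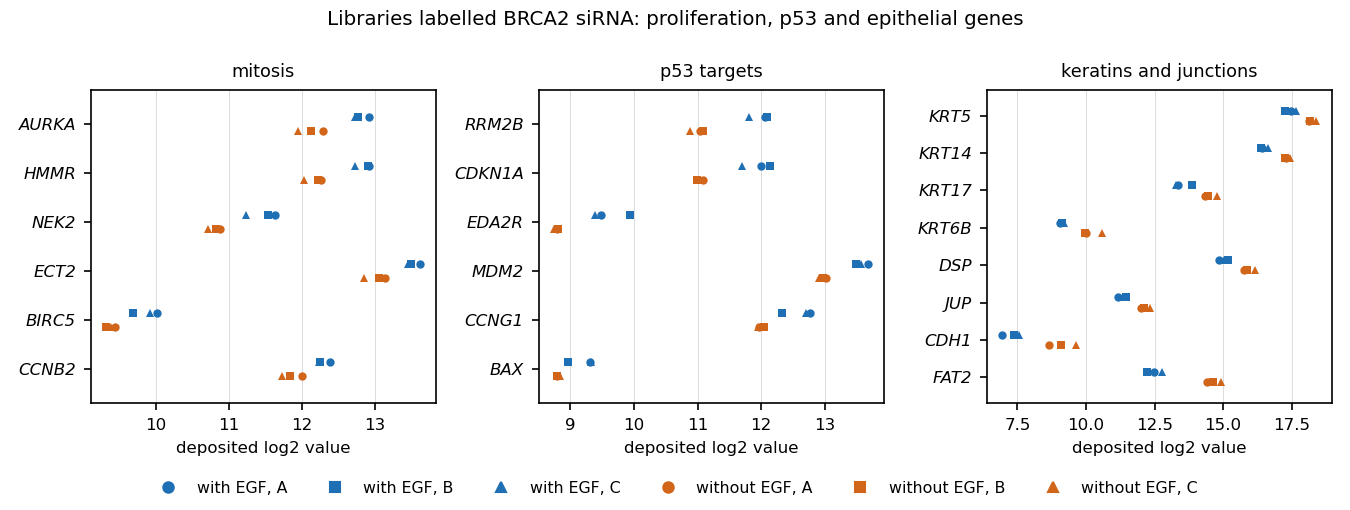
Deposited log2 value in the 6 libraries labelled BRCA2 siRNA for mitosis genes (left), p53 targets (middle) and keratin and junction genes (right); blue, with EGF; orange, without EGF; the marker shape gives the replicate. The orange points lie left of the blue points for every mitosis and p53 gene drawn and right of them for every keratin and junction gene drawn. The genes were named for small p values in their lists, so this separation is not a separate result.

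Of 19 genes of the cornified envelope, the outer shell of differentiated keratinocytes, 10 rose (52.6%, against 13.4% of all genes) and 1 fell. Periplakin (PPL) was 10.45, 10.73 and 10.77 with EGF and 11.37, 11.65 and 12.16 without EGF, a rise of 1.08 ± 0.17. The transglutaminase TGM1, which crosslinks the envelope, was 5.52, 5.52 and 5.62 against 6.75, 6.85 and 7.97, filaggrin (FLG) 3.997, 4.34 and 4.48 against 5.43, 5.92 and 5.46, and S100A8, the partner of S100A9, 8.81, 8.09 and 9.13 against 9.99, 10.48 and 10.86. The keratin KRT80 was the member that fell, by 0.90 ± 0.20. The list had 33 of its 37 genes in the table and 14 of those below the limit, so the 19 tested are not the whole programme. With replicate A with EGF or replicate C without EGF left out 6 rose. Among kallikreins and epidermal protease inhibitors 4 of 10 rose (40%). The protease KLK5 was 4.29, 4.32 and 5.59 against 6.91, 7.50 and 7.80, the inhibitor SERPINB13 3.21, 3.70 and 3.43 against 5.13, 5.87 and 6.94, SLPI rose by 1.85 ± 0.35 and SERPINB3 by 1.00 ± 0.27. SERPINB7 was the member that fell, by 0.85 ± 0.14.

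Adhesion to the basement membrane changed by gene. The anchoring collagen COL7A1 was 12.47, 12.74 and 12.57 with EGF and 13.50, 13.61 and 14.004 without EGF, a rise of 1.11 ± 0.12, and dystonin (DST) rose by 0.62 ± 0.09 and COL17A1 by 0.41 ± 0.12. The integrin ITGA6 fell from 16.38, 16.37 and 16.25 to 15.98, 16.01 and 15.95. LAMB3, a laminin chain, was 14.55, 15.93 and 14.09 against 14.09, 14.13 and 14.15, and its difference of -0.73 ± 0.48 did not pass. Among basement membrane genes 6 of 18 rose (33.3%, against 13.4% of all genes) and 1 fell. Perlecan (HSPG2) rose from 10.81, 11.05 and 10.94 to 11.83, 11.84 and 12.13 and the laminins LAMA5, LAMA1 and LAMA4 by 0.89, 0.64 and 1.44. Of 15 integrins 5 rose (33.3%, against 13.4% of all genes) and 3 fell (20%, against 13.8%). ITGB6, a subunit of an integrin that activates TGF-beta, was 6.58, 6.17 and 6.76 against 8.11, 8.52 and 8.98, a rise of 2.03 ± 0.27, while ITGA10 and ITGA2 differed by -0.71 and -0.35.

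Of 14 matrix metalloproteinases and their inhibitors 3 rose (21.4%, against 13.4% of all genes) and 1, MMP1, fell (7.1%, against 13.8%). Among genes of the plasminogen system the plasminogen activator PLAT was 11.96, 11.87 and 11.76 with EGF and 10.89, 11.04 and 10.68 without EGF, a difference of -0.99 ± 0.12, and PLAUR, the urokinase receptor, 11.29, 11.27 and 10.96 against 10.31, 10.37 and 10.24. The urokinase PLAU was 12.36, 12.71 and 12.17 against 11.81, 12.12 and 12.26 and did not pass. Of 8 genes of the plasminogen system 4 fell (50%) and none rose. MMP2 was 5.23, 5.81 and 5.77 against 7.002, 7.13 and 7.25, a rise of 1.52 ± 0.18, and the inhibitors TIMP3 and TIMP2 rose by 1.83 ± 0.25 and 0.58 ± 0.15.

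Receptors and ligands of cell contact and guidance signalling changed by gene, and not in every list by more than genes at large. NOTCH3 was 5.75, 6.28 and 5.98 with EGF and 7.23, 7.18 and 7.77 without EGF, a rise of 1.39 ± 0.20, NOTCH1 rose by 0.50 ± 0.12, and the ligand JAG2 and the fringe enzymes LFNG and MFNG by 1.25, 1.63 and 1.03. The target gene HES1 was 11.37, 11.31 and 11.15 against 10.69, 10.78 and 10.95, a difference of -0.47 ± 0.09, and the ligand DLL4 differed by -0.82 ± 0.19. In all 7 of 21 Notch genes rose (33.3%, against 13.4% of all genes) and 2 fell (9.5%, against 13.8%). Of 28 semaphorin, plexin and neuropilin genes 10 rose (35.7%), 4 fell (14.3%, near the share of all genes) and 14 did not pass. Among the plexins, which are semaphorin receptors, PLXNB1 rose from 11.02, 11.04 and 11.20 to 11.93, 11.98 and 12.26, PLXNA3 by 0.93 ± 0.20 and PLXNA1 by 0.45 ± 0.08, and SEMA3A had the largest fall of the list. Of 15 Eph receptors and ephrins 2 rose (13.3%) and 1 fell (6.7%), near or below the shares of all genes. EPHB6 was 3.87, 3.73 and 4.66 against 5.37, 5.45 and 6.65, EPHA3 rose by 0.99 ± 0.25 and EFNB2 differed by -0.69 ± 0.16. TGF-beta and YAP targets rose in 6 of 22 cases (27.3%) and fell in 2 (9.1%), with TGFBI, a matrix protein induced by TGF-beta, from 11.59, 11.63 and 11.45 to 12.50, 12.76 and 12.93, TGFB2 by 0.81 ± 0.13, ID2 by 1.39 ± 0.24 and the receptor kinase AXL at -0.69 ± 0.14.

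Interferon, antigen presentation and complement genes rose in part. Of 32 interferon-stimulated genes 9 rose (28.1%, against 13.4% of all genes) and 2 fell (6.25%, against 13.8%). DTX3L rose from 9.99, 10.10 and 10.13 with EGF to 10.74, 10.77 and 10.80 without EGF, the RNA sensor IFIH1 by 0.94 ± 0.14, IFIT2 by 1.19 ± 0.20 and STAT2 by 0.56 ± 0.13. The RNA sensor RIGI and the exonuclease ISG20 fell, by 0.63 ± 0.11 and 1.10 ± 0.16. Of 17 MHC class I genes 5 rose (29.4%) and none fell, with HLA-B from 10.37, 10.56 and 10.23 to 10.93, 11.09 and 11.28. HLA genes are polymorphic and alike, so their reads may be split. Complement genes rose in 4 of 14 cases (28.6%), and CD59, which protects cells from complement, was 15.19, 15.20 and 14.89 against 14.56, 14.53 and 14.50. Without replicate A with EGF or without replicate B or C without EGF, 4 interferon genes rose, while at least 4 complement genes rose in each of the 11 fits that leave out 1 library. Of 25 cytokine and chemokine genes 2 rose and 2 fell (8% each, below the 13.4% higher and 13.8% lower of all genes). CSF1 was 9.18, 9.48 and 9.32 against 10.12, 10.09 and 10.41. IL6 was 6.86, 8.46 and 6.09 against 6.18, 5.66 and 5.75, CCL20 7.22, 8.57 and 6.11 against 5.47, 6.16 and 6.43 and CXCL3 10.13, 11.01 and 9.26 against 8.45, 8.97 and 9.09, and none of these 3 passed, with replicate B with EGF the highest library for each. Of 12 prostaglandin genes 2 rose (16.7%, near the 13.4% of all genes), the cyclooxygenase PTGS1 by 0.61 ± 0.11 and the receptor PTGER2 by 0.71 ± 0.23.

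Markers of other cell types were read as a check on the make-up of the cultures, in which fewer cells of a type and less RNA per cell cannot be told apart. Of 12 basal markers 6 rose (50%, against 13.4% of all genes) and 1 fell. Their summed level was 19.08 to 19.23 with EGF and 19.52 to 19.72 without. Of 8 myoepithelial contractile markers 5 rose (62.5%) and 1 fell (12.5%). TAGLN rose from 7.86, 8.34 and 7.79 to 9.55, 9.61 and 9.87, TPM1 by 0.81 ± 0.10, MYLK by 0.60 ± 0.08 and ACTA2 by 0.69 ± 0.13, while TPM2 differed by -1.17 ± 0.19. Among 11 luminal markers 2 rose (18.2%, against 13.4% of all genes) and 3 fell (27.3%, against 13.8%). AGR2 was 7.78, 7.28 and 7.43 against 6.07, 5.52 and 5.64, KRT18 differed by -0.50 ± 0.10 and KRT8 by -0.31 ± 0.09, and ALDH1A3 rose by 0.76 ± 0.19. Fibroblast and mesenchymal markers rose in 9 of 23 cases (39.1%) and fell in 5 (21.7%). Their summed level was 19.29 to 19.68 with EGF and 19.52 to 19.69 without, groups that overlap. FN1 alone was 19.12 to 19.55 with EGF and 19.38 to 19.57 without. The sum thus mostly follows FN1 and says little of the other members. The collagens COL1A1, COL3A1, COL5A1, COL5A2, COL6A1 and COL6A2, POSTN, FAP and LUM rose, and vimentin (VIM), ZEB1, CDH11, COL6A3 and CDH2 fell. The falls of CDH11, COL6A3 and CDH2 each passed in 2 of the 6 fits that leave out a library labelled BRCA2 siRNA. COL1A2, the partner chain of COL1A1 in fibroblasts, was 1.31 to 1.70 in the 6 libraries, below the limit. Of 12 leukocyte and endothelial markers 9 were measured below the limit, and CD14 was the member that rose (3.10, 3.31 and 3.94 against 4.18, 4.34 and 4.28). That call passed in 1 of the 6 fits that leave out a library labelled BRCA2 siRNA (largest adjusted p in limma over all 11 fits, 0.179). The endothelial marker KDR was well above the limit, at 7.36 to 8.38 with EGF and 8.03 to 8.68 without. TEK was 4.14 to 5.12 with EGF and 4.08 to 4.34 without, and neither passed.

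The same withdrawal in the control libraries asks which of these changes depend on the siRNA label. With control siRNA 9123 genes passed (50.8%), and the test of the difference between the siRNAs passed for 595 genes (3.31%), with the withdrawal effect more positive under BRCA2 siRNA for 248 (1.38%) and more negative for 347 (1.93%). Of the 314 genes past the threshold both in the BRCA2 siRNA comparison and in this difference, 307 changed less under BRCA2 siRNA than under control siRNA. The test of the difference rested on single libraries. In limma it passed for 0 genes without replicate C with EGF, for 1 without replicate B without EGF and for 0 without control replicate A with EGF or either control library without EGF, where unadjusted p values below 0.05 numbered 3401, 3242, 2984, 2686 (A) and 2989 (C). It passed for 157 genes without replicate A with EGF, 62 without replicate A without EGF, 1041 without replicate C without EGF and 1607 without control replicate C with EGF.

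The genes below were among those with the largest differences between the labels, of the genes past both tests whose mean over the 11 libraries lay above that of the median gene. Of the genes at lower levels, GPNMB and EPHB6 differed by more (-3.32 and -3.26). TRIM29 rose by 2.31 ± 0.27 with BRCA2 siRNA and 4.73 ± 0.30 with control siRNA, a difference of -2.42 (adjusted p = 0.0235). KRT16 rose by 0.97 against 2.95, PPL by 1.08 against 2.96, the membrane protein MAL2 by 0.71 against 2.72, the TGF-beta coreceptor TGFBR3 by 1.20 against 3.30, SAA1, an acute-phase protein, by 1.80 against 3.61 and FOS by 1.01 against 2.82. Falls were smaller too: HMGA1, a chromatin protein of growing cells, was 12.80, 12.81 and 12.73 with EGF and 11.95, 11.63 and 11.34 without, a difference of -1.14 ± 0.14 against -2.61 ± 0.16 with control siRNA. The ubiquitin ligase MARCHF4 differed by -0.52 against -2.41, the amino acid enzyme BCAT1 by -0.9997 against -2.84, the phosphodiesterase PDE2A by -0.47 against -2.16, the noncoding RNA RPSAP52 by -0.76 against -2.29, ETV5 by -0.86 against -2.33, the hedgehog inhibitor HHIP by -1.15 against -2.56 and the adaptor LPXN by -0.49 against -1.81. SPRY4, which did not pass with BRCA2 siRNA (-0.31 ± 0.14), differed by -1.90 with control siRNA, and the difference between the siRNAs was 1.59 (adjusted p = 0.0167).

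For 6 genes chosen after their values were seen, the estimates under both labels lay close together. TENM2 rose by 2.20 ± 0.12 with BRCA2 siRNA and 2.19 ± 0.13 with control siRNA, a difference of 0.0047 ± 0.18. SEMA3A differed by -2.27 and -2.26 (difference -0.01 ± 0.22), RGS2 by -1.78 in both (difference -5.2e-05 ± 0.18), ETV1 by -1.08 and -1.07, MDM2 by -0.62 and -0.57 and TAGLN by 1.68 and 1.78. A test that does not pass does not show that effects are equal. The standard errors are not limits, and the effects may lie further apart than these.

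Of the called genes whose estimates under the 2 labels had opposite signs, the 6 with the largest differences and a mean over the 11 libraries above that of the median gene follow. For SRC, TSPAN1, KRT8 and ENPP1 the test of the difference passed. SRC, a tyrosine kinase downstream of the receptor, rose by 0.25 ± 0.08 with BRCA2 siRNA (10.11, 10.15 and 10.11 against 10.52, 10.33 and 10.27) and differed by -0.58 ± 0.09 with control siRNA, a difference of 0.83 (adjusted p = 0.0178). TSPAN1, a tetraspanin, was 10.15, 10.28 and 10.14 against 9.31, 9.38 and 9.48 with BRCA2 siRNA, a difference of -0.80 ± 0.10, and differed by 0.09 with control siRNA. KRT8 and the phosphodiesterase ENPP1 differed by -0.31 and -0.38 with BRCA2 siRNA and by 0.45 and 0.56 with control siRNA, and KRT8 and ENPP1 passed in 2 and 0 of the 6 fits that leave out a library labelled BRCA2 siRNA. HMGA2-AS1 and TNC, a matrix glycoprotein, rose by 0.65 and 0.76 with BRCA2 siRNA and differed by -0.15 and -0.01 with control siRNA, and their tests of the difference did not pass (adjusted p = 0.0676 and 0.233). With control siRNA the differences of TSPAN1, HMGA2-AS1 and TNC were themselves not called. The calls of SRC and TNC with BRCA2 siRNA passed in 1 of those 6 fits each, with largest adjusted p values of 0.143 and 0.109, while TSPAN1 and HMGA2-AS1 passed in all 6.

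**Figure D5:**
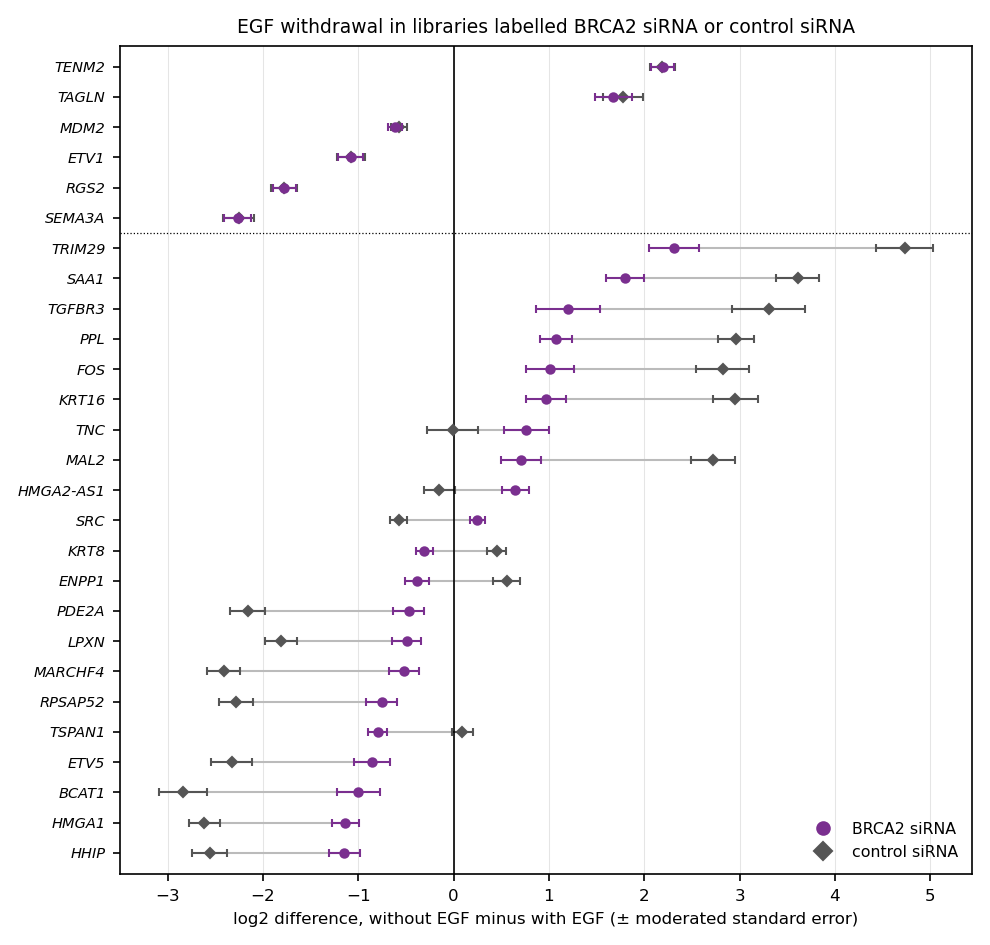
Log2 difference after EGF withdrawal with its moderated standard error (horizontal axis) in libraries labelled BRCA2 siRNA (purple circles) and control siRNA (grey diamonds); below the dotted line, genes named for their difference between labels or their opposite signs; above it, 6 genes picked after their values were seen because the estimates lie close together. Most purple circles lie nearer to 0 than the diamonds, from FOS (1.01 against 2.82) to HMGA1 (-1.14 against -2.61).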

How the data were processed

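Total RNA of 11 libraries was measured by RNA sequencing after ribosomal RNA depletion. The deposited values are log2 normalised expression per gene. Per the submitters' processing notes, TopHat2 2.0.11, DESeq2, limma and the hg19 build were used; for the counter, annotation and transform the notes and labels name nothing (not given in the sources used here), and depth is unknown. Symbols were matched to 30039 of 40460 identifiers (74.2%). Genes at 3.32 or more in at least 2 libraries were kept. All 11 libraries entered one limma 3.58.1 fit (R 4.3.3), with 1 mean per group for 4 groups, 7 residual degrees of freedom and a mean-variance trend, and p-values were adjusted over 17950 genes by Benjamini-Hochberg at a threshold of 0.05. The script was tested on simulated data. The replicates are labelled biological, but the labels do not say whether they are separate transfections or days, so p-values measure the spread between these libraries.

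The members, lists and tests were chosen with earlier results of these data known. Genes were named by rule: BRCA2; the 15 largest rises and falls among called genes with a symbol, a higher-group mean above the median gene and no overlap; measured members of the ligand, receptor, feedback, ETS, immediate-early, G1 and marker lists; up to 8 members of each other list with the smallest p; the 8 largest differences between siRNAs in each direction; 6 genes of opposite sign; and 4 genes at the filter. Some genes that the rule names are not reported here. Alternatives were a replicate block, the 6 libraries alone, a term for replicate A, replicates B and C alone, no filter or a stricter filter, quantile normalization, no trend and each library left out. Promoter sequences came from RefSeq, GRCh38.p14; other coordinates were not used, since the builds differ.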

Additional observations from a re-analysis of the deposited data

Results flagged for a closer look

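For 55 genes named in the text the test of the difference between the siRNAs passed in limma, with values given as withdrawal with BRCA2 siRNA minus withdrawal with control siRNA on the log2 scale. For 30 genes that rose under BRCA2 siRNA the rise was smaller than under control siRNA: APOE (-1.75), CDH1 (-1.93), COL5A2 (-0.97), CTSD (-0.89), DSC3 (-1.17), DSP (-0.96), EPHB6 (-3.26), FBXO32 (-1.81), FOS (-1.81), FOSB (-1.87), FOXO1 (-1.58), GPNMB (-3.32), IFIT2 (-1.28), JUP (-0.76), KRT16 (-1.98), KRT6A (-0.73), KRT6B (-0.95), MAL2 (-2.01), MEGF6 (-1.64), NEAT1 (-1.24), NOTCH1 (-0.83), NOTCH3 (-1.79), PKP1 (-0.57), PPL (-1.89), SAA1 (-1.81), SERPINB13 (-2.37), TGFBR3 (-2.10), TGM1 (-1.79), TIMP3 (-1.75) and TRIM29 (-2.42). For 19 genes with a negative difference under both labels it was nearer to 0 under BRCA2 siRNA: ATF4 (0.95), AURKA (0.70), BCAT1 (1.84), CCNB2 (0.66), CDC45 (0.93), ECT2 (0.67), ELK3 (0.56), ETV4 (1.59), ETV5 (1.47), HHIP (1.41), HMGA1 (1.48), INSC (1.77), KIF2C (0.59), LPXN (1.32), MARCHF4 (1.89), PDE2A (1.69), PDIA4 (0.54), RPSAP52 (1.53) and SPRY4 (1.59). The estimates had opposite signs for 6 genes: DUSP7 (0.58), ENPP1 (-0.94), HES1 (-0.58), KRT8 (-0.76), SRC (0.83) and TSPAN1 (-0.89).

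None of the 55 differences changed sign under an alternative, and each still passed in 5 to 12 of the 18 alternatives run (17 for IFIT2). None passed without BRCA2 siRNA replicate C with EGF, BRCA2 siRNA replicate B without EGF, control replicate A with EGF or either control library without EGF. The control group without EGF has 2 libraries and no replicate B, and with a term for replicate A 2 of the 55 did not pass, HES1 (adjusted p = 0.0542) and TGFBR3 (adjusted p = 0.052).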

How the results depend on the processing

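Of 246 gene calls named in the text, none changed sign under any alternative run, but calls were lost: 227 with replicates B and C alone, 68 without replicate A with EGF, 64 without replicate C without EGF, 52 without replicate B without EGF, 38 without replicate B with EGF, 34 under quantile normalization and 20 with a term for replicate A. The number of genes past the threshold ranged from 2227 (without replicate A with EGF) to 6204 (without control replicate C with EGF) over the 11 fits that leave out 1 library, and the number with at least a 2-fold change was 289 under the stricter filter, which tests fewer genes. Replicates B and C alone, which leave fewer samples, gave 47 calls, all at least 2-fold, against 3701 genes with an unadjusted p below 0.05. In limma the difference between the siRNAs then passed for 0 genes (990 at an unadjusted p below 0.05) and the control comparison for 2074. That difference passed for 375 genes without the mean-variance trend and for 0 to 1607 over the fits that leave out 1 library; the cause was not tested. BRCA2 mRNA without EGF was higher under BRCA2 siRNA than control siRNA by 0.74, which no longer passed with replicates B and C alone (0.54) or without control replicate A without EGF (0.64), and was 0.64 to 0.84 over the fits that leave out 1 library. With a replicate block, 5457 genes passed for withdrawal (3772 in the 6 libraries alone) and 930 for the difference between siRNAs. With a term for replicate A, 3937 genes passed for withdrawal and 500 for the difference. The letters were not taken as pairs, since the labels do not say that a letter marks a shared batch or day. Deviations of same-letter libraries correlated at -0.20 for A, -0.11 for B and 0.02 for C, but the centring of replicate A bears on these values, so they do not settle the pairing. No named call was lost in the block over 11 libraries. Depth is unknown, so the precision of weakly expressed genes cannot be given.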
